A study of Homo sapiens with 6 samples.

Results

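Coding-exon peaks away from promoters are regions of open chromatin that overlap protein-coding sequence far from any place where transcription starts. A peak was counted as one when its centre lay more than 3000 bp from every start site of a GENCODE release 44 protein-coding or lncRNA gene and at least 100 of its bases were coding sequence (CDS). Of the 152800 peaks in the atlas, 1563 met this rule, in 1347 genes, and no peak had to be left out for overlapping the coding sequence of HMGB2 itself. The peaks were measured by ATAC-seq in A375, a human melanoma cell line, in 3 empty vector libraries and 3 HMGB2OE libraries. HMGB2OE cells overexpressed HMGB2 after stable lentiviral transduction and drug selection. The study describes the libraries of a condition as technical replicates of an experiment that was not repeated independently, so the p-values here measure only the spread between these libraries. The comparison asked where chromatin became more or less accessible when HMGB2 was in excess.

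ATAC-seq relies on the transposase Tn5, which places sequencing adapters where DNA is not wrapped tightly in nucleosomes, so the reads counted in a peak follow how open that stretch is. HMGB2 is a high mobility group protein that binds DNA with little sequence preference and bends it. Most distal open sites lie in introns or between genes, but an exon can also carry binding sites for transcription factors, and its bases then serve both as codons and as regulatory sequence.

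The sequences of 6 of these peaks are given first, because they show how coding and non-coding bases share a peak. They are the central 300 bases of peaks with large rises and falls, in hg38, 5′ to 3′ on the strand of the gene, with coding bases in capitals and intron bases in lower case. The window of GP6 is not shown because part of it is untranslated in shorter GP6 transcripts. That of TOR1AIP1 was added after its values were seen. The first 2 peaks were higher in HMGB2OE cells.
SYNE2 chr14:64049572-64049871: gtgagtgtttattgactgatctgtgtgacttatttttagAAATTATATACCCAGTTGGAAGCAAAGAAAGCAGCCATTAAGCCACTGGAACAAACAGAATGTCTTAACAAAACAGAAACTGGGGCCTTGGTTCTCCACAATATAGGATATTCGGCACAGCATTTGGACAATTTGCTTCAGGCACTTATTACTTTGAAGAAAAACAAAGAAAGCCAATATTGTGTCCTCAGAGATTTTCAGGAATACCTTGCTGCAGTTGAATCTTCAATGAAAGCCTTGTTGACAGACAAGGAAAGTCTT
DIAPH1 chr5:141529078-141529377: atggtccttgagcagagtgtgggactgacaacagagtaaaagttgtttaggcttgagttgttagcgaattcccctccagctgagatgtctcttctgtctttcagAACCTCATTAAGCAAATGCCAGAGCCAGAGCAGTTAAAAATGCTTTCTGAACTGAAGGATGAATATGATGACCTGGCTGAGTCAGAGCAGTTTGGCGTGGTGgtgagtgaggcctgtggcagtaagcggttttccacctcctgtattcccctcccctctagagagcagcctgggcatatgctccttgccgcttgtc

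The next 4 peaks were lower in HMGB2OE cells.
PRSS12 chr4:118338015-118338314: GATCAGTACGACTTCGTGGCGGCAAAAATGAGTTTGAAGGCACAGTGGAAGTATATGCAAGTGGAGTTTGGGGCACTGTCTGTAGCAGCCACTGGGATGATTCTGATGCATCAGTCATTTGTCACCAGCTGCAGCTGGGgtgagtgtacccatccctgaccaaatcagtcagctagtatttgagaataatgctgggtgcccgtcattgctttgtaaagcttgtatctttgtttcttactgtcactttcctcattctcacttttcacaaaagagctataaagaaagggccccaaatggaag
HGF chr7:81705526-81705825: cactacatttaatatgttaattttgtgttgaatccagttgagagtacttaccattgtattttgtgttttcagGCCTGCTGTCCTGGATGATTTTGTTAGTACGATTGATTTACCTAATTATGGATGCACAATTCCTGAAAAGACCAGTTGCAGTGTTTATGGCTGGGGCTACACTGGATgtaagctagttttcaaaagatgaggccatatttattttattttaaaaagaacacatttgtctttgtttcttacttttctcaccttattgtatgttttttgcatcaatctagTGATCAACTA
ZNF582 chr19:56383908-56384207: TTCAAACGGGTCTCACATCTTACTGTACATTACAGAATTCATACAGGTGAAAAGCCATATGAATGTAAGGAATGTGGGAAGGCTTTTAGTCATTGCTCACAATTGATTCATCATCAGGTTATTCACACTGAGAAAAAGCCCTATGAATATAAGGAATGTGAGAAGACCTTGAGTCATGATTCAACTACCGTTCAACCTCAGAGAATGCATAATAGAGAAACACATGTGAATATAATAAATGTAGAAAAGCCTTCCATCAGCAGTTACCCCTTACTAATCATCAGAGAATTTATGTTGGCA
TOR1AIP1 chr1:179917723-179918022: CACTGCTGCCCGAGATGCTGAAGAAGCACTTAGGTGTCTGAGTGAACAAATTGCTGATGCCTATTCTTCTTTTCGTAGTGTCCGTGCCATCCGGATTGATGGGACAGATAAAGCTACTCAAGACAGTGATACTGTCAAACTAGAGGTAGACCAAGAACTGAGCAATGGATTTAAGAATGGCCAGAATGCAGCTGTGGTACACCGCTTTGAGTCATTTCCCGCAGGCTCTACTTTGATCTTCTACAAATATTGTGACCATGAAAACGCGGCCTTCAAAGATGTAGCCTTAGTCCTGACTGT

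These windows differed in how much of them was coding. The central bases of the TOR1AIP1 and ZNF582 peaks were coding throughout (300 of 300 each), in long last coding exons. The SYNE2 window held 261 coding bases after a short stretch of intron, whereas the DIAPH1 window held 102, with intron on either side. The letters AG, GT or GC, which mark splice sites, stood beside 97.5% of the 2157 coding ends that fell inside peaks of internal exons.

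A coding-exon peak was typically an ordinary internal exon with intron on either side. The median peak held 161 coding bases, and 86 of the 1563 peaks were coding from end to end. Internal coding exons held 1171 peaks, last coding exons 295, first coding exons 24 and single coding exons 11, and 62 peaks overlapped coding sequence that the canonical transcript skips. The exon was longer for peaks in last coding exons (median 296 coding bases) than for those in internal exons (median 153). A single coding-exon peak was found in 1177 genes, while 7 genes held 4 or more. Coding sequence of more than 1 gene was overlapped by 29 peaks. To find sequence with copies elsewhere in the genome, words of 31 bases were looked up on all of hg38: 1180 peaks held no repeated word, and 79 had more than 50% of their words repeated, so that their counts are uncertain.

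Libraries held 26910189 to 45645294 counts in peaks, and TMM factors lay between 0.975 and 1.02. Normalized counts below scale each library by its total and TMM factor to the mean size of the 6 libraries. Promoter peaks of melanocyte lineage genes were open, with mean normalized counts of 862 for SOX10, 1295 for MITF and 3768 for PMEL against a median of 171 over all promoter peaks, whereas MLANA, TYR and DCT had no tested promoter peak. Each marker gene is represented by its strongest promoter peak, of 7 tested for SOX10 and 6 each for MITF and PMEL. A highest value is thus set beside a median. A peak within 3000 bp of the start sites of several genes counted for each of them. Such values, that of PMEL included, therefore need not reflect the named gene alone. Among markers of other cell types, COL1A1 (752) and PDGFRB (619), which some melanoma lines also express, were open and CD3E was at 248. KRT5 (123) and PECAM1 (27.3) were below the median, and PTPRC, CDH1 and ALB had no tested promoter peak.

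After the filter on low counts, 1532 coding-exon peaks were tested. The 31 that were not tested never exceeded 12 counts in a library. The median coding-exon peak had a mean normalized count of 98.7, against 89.7 for the 102285 other tested peaks away from promoters and 171 for the 46300 promoter peaks. GC content was also between the other classes, with medians of 47.8% in coding-exon peaks, 44.2% in other peaks away from promoters and 54.4% in promoter peaks. The ratio of observed to expected CpG was 0.274 in coding-exon peaks and 0.197 in the other peaks away from promoters. Coding-exon peaks took up 0.725%, 0.722% and 0.721% of all counts in the 3 empty vector libraries and 0.738%, 0.737% and 0.739% in the 3 HMGB2OE libraries. The HMGB2OE libraries were thus all above the empty vector libraries, with no overlap. The matching shares of the other classes of peaks are not given here. Whether this difference is particular to coding-exon peaks was therefore not tested.

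With HMGB2 overexpression, the share of coding-exon peaks called higher was below that of all tested peaks, and the share called lower was near it. A call needed an adjusted p under 0.05 in edgeR's quasi-likelihood test, with Benjamini-Hochberg adjustment over all 150117 tested peaks, and a fold change of at least 1.5. By this rule 18 coding-exon peaks (1.17%) were higher in HMGB2OE cells, against 1.87% of all tested peaks. Lower in HMGB2OE cells were 21 (1.37%), against 1.44% of all tested peaks. Of the other peaks away from promoters, 2.24% were called higher and 1.72% lower, both above the shares of coding-exon peaks. Promoter peaks had 1.07% and 0.838%. These shares were not compared by a test. Without the fold limit, 38 of the 1532 tested coding-exon peaks were higher and 37 lower, beside 3.44% and 3.03% of all tested peaks. The 39 called peaks lay in 39 different genes. In each of them the libraries of the conditions did not overlap. The same held at 98.3% of the other peaks away from promoters that were called higher and 98.2% of those called lower. It is thus common to called peaks. Across all coding-exon peaks tested, called or not, the 3 HMGB2OE libraries were all above the 3 empty vector libraries at 187 peaks (12.2%, against 12.6% of all tested peaks) and all below them at 144 (9.40%, against 12.5%). The median log2 fold change (HMGB2OE over empty vector) of coding-exon peaks was 0.033, with 5% and 95% quantiles of -0.44 and 0.49. Medians in the other classes were 0.014 for other peaks away from promoters, -0.036 for promoter peaks and -0.0049 for all tested peaks. Log2 fold changes were above 0 at 55.6% of coding-exon peaks. The counts of calls rested on which libraries were used: without empty vector replicate 2, 8 peaks were called higher, and without HMGB2OE replicate 3, 10 were. Without empty vector replicate 1 or HMGB2OE replicate 1, 13 were called lower.

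**Figure D1:**
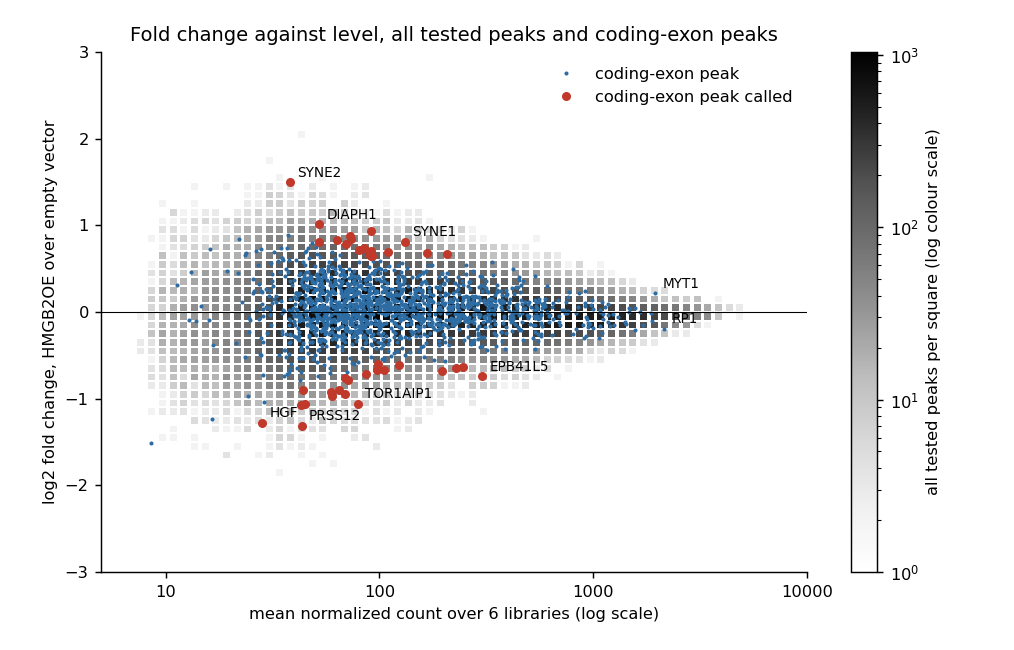
Log2 fold change (HMGB2OE over empty vector) against mean normalized count on a log axis, with all 150117 tested peaks as grey squares shaded by their number, the 1532 tested coding-exon peaks as blue dots and the 39 called ones as red circles. Coding-exon peaks spread like the other peaks around 0, the called ones lie mostly at low to moderate counts, and RP1 and MYT1 at the right have the highest counts and were not called.

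The largest called rise was at SYNE2, which encodes nesprin 2, a giant protein of the outer nuclear membrane that ties the nucleus to the actin cytoskeleton. The peak covers the whole of coding exon 46 of 115 (266 bases) on chromosome 14 from 64049471 to 64049972, 24267 bp from the nearest start site. Normalized counts were 18.1, 21.5 and 19.9 in empty vector libraries 1 to 3 and 57.8, 52.5 and 59.7 in HMGB2OE libraries 1 to 3. All HMGB2OE libraries were far above all empty vector libraries, and within each condition the libraries lay close together. The log2 fold change was 1.49 (± 0.289 standard error, edgeR's quasi-likelihood test, adjusted p = 0.00175). Its counts were among the lower ones of the called peaks, but the call held in all 14 alternative fits, those without 1 library included, with log2 fold changes from 1.44 to 1.56.

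The related gene SYNE1, which encodes nesprin 1, also held a called rise. This peak lies in an internal coding exon. Normalized counts were 66.7, 101.5 and 115.8 in empty vector libraries 1 to 3 and 156.4, 166.0 and 183.5 in HMGB2OE libraries 1 to 3. The lowest HMGB2OE library was above the highest empty vector library, although empty vector library 1 was well below the other two. The log2 fold change was 0.81 (± 0.166 standard error, edgeR's quasi-likelihood test, adjusted p = 0.00290), and the call also held in all 14 alternative fits.

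In both genes the coding-exon peak was the only tested peak called higher. SYNE2 had 17 tested peaks, with a median log2 fold change of -0.15, and no other call. Its strongest peak at a start site of a protein-coding transcript had a log2 fold change of -0.18 (adjusted p = 0.286), and another peak within 3000 bp of a start site, 313 kb from the 5′ end of the gene, had one of -0.51 (adjusted p = 0.0499), which is below the fold limit. SYNE1 had 26 tested peaks, of which 3 were coding-exon peaks. The other two coding-exon peaks had log2 fold changes of 0.10 and 0.53 (adjusted p = 0.703 and 0.208). A peak 233 kb from the 5′ end of SYNE1, within 3000 bp of a lncRNA start site, was called lower, from a mean of 141 to 68.2 normalized counts (log2 fold change -1.04, adjusted p = 0.000276), and the coding-exon peak that rose lies at 210 kb. The strongest peak at a start site of a protein-coding SYNE1 transcript had a log2 fold change of -0.063.

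**Figure D2:**
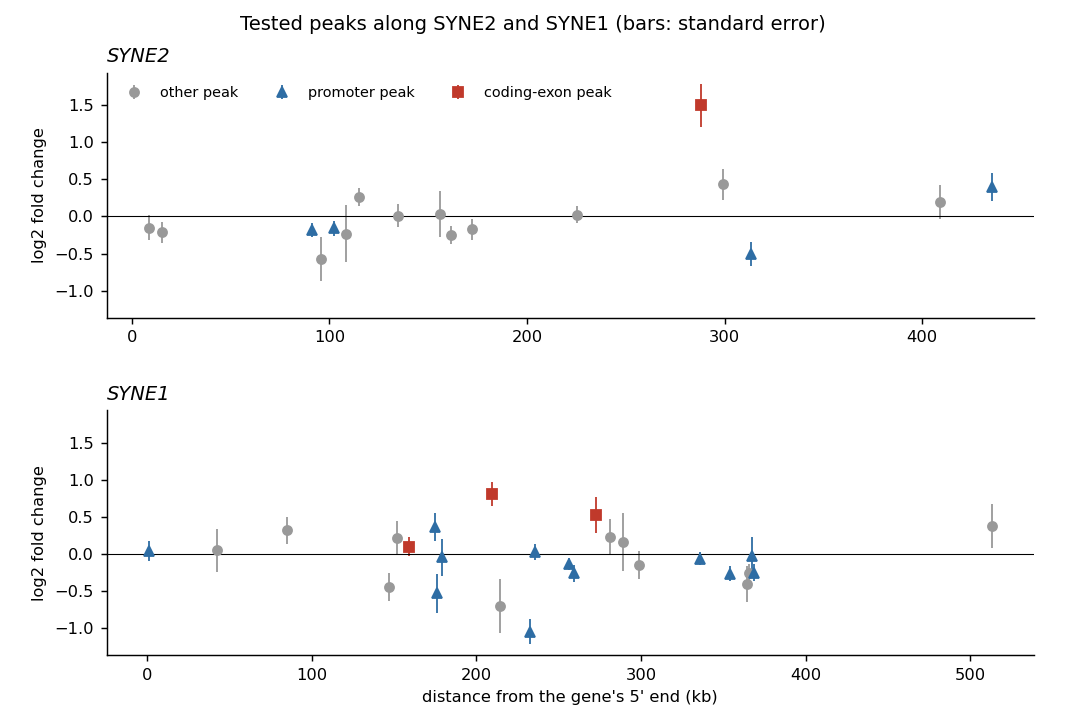
Log2 fold change (HMGB2OE over empty vector) of each tested peak along SYNE2 (top) and SYNE1 (bottom) by its distance from the 5′ end of the gene in kb, with coding-exon peaks as red squares, peaks within 3000 bp of any start site (promoter peaks) as blue triangles, other peaks as grey circles and bars of 1 standard error. The SYNE2 coding-exon peak at 1.49 stands above all others of the gene, while SYNE1 has one called rise at 0.81 and one called fall at -1.04.

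Another large rise was at DIAPH1. DIAPH1 encodes a formin, a protein that assembles actin filaments, and its peak covers coding exon 21 of 28 on chromosome 5 from 141528977 to 141529478. Its normalized counts were 40.3, 18.9 and 46.8 in empty vector libraries 1 to 3 and 68.0, 65.9 and 74.3 in HMGB2OE libraries 1 to 3, a log2 fold change of 1.01 (± 0.271 standard error, edgeR's quasi-likelihood test, adjusted p = 0.0214). The conditions did not overlap, but empty vector library 2 was less than the other two by a wide margin. Without that library the log2 fold change was 0.66 (adjusted p = 0.165), and the call was also lost without each of HMGB2OE libraries 1, 2 and 3 (adjusted p = 0.0701, 0.0539 and 0.0720).

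Further rises among the largest were in genes of varied function. GP6, which encodes the platelet collagen receptor, had a peak that was coding throughout and went from 52.0 ± 9.58 to 93.96 ± 7.06 normalized counts (mean and SD of 3 libraries; log2 fold change 0.87). The peak of CFAP46, a gene of the ciliary axoneme, went from 52.7 ± 5.20 to 94.7 ± 32.1 (log2 fold change 0.84), and its spread came from HMGB2OE library 3 at 131.7, with the other two at 74.0 and 78.4. USP20 encodes a deubiquitinating enzyme (log2 fold change 0.83), MYH7 a heavy chain of cardiac myosin (0.80), TMEM132B a transmembrane protein (0.78) and TCEA3 a transcription elongation factor (0.74). Adjusted p-values of these 6 peaks lay between 0.00880 and 0.0424 (edgeR's quasi-likelihood test). None of these calls held in every fit without 1 library. GP6 lost its call without empty vector library 2 (adjusted p = 0.0726). CFAP46 lost it without empty vector library 2 or 3 or HMGB2OE library 3, and its log2 fold change without the last was 0.54 (adjusted p = 0.212). USP20 lost it in 4 such fits, TMEM132B in 3, TCEA3 in 4 and MYH7 in 5 of 6, with lowest log2 fold changes of 0.62 and 0.57 for USP20 without empty vector library 2 and TCEA3 without the same library. MYH7 was also not called with GC-content offsets (adjusted p = 0.0623).

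The largest called fall was at PRSS12, which encodes neurotrypsin, a secreted serine protease. The peak covers coding exon 2 of 13 on chromosome 4 from 118337914 to 118338415. Normalized counts were 62.5, 55.1 and 67.9 in empty vector libraries 1 to 3 and 25.5, 20.02 and 29.3 in HMGB2OE libraries 1 to 3. Every HMGB2OE library was below every empty vector library by a clear gap. The log2 fold change was -1.31 (± 0.276 standard error, edgeR's quasi-likelihood test, adjusted p = 0.00362), and the call held in all 14 alternative fits. The strongest promoter peak of PRSS12 was at 672 ± 43.4 and 612 ± 20.3 normalized counts (mean and SD of 3 libraries; log2 fold change -0.14, adjusted p = 0.394).

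TOR1AIP1, which encodes the inner nuclear membrane protein LAP1, had the fall with the lowest adjusted p among the 10 largest called falls. Its peak lies wholly within the last coding exon, on chromosome 1 from 179917622 to 179918123. Normalized counts were 97.3, 119.6 and 106.5 in empty vector libraries 1 to 3 and 57.8, 59.2 and 37.2 in HMGB2OE libraries 1 to 3. The HMGB2OE libraries were all lower, library 3 most of all. The log2 fold change was -1.06 (± 0.201 standard error, edgeR's quasi-likelihood test, adjusted p = 0.00153), and the call held in all 14 alternative fits. At its promoter, the log2 fold change was -0.058 (adjusted p = 0.706).

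HGF, SPG11 and ZNF582 had falls of similar size that were less stable. HGF is the ligand of the receptor MET, and its peak on chromosome 7 from 81705425 to 81705926 overlaps coding exon 17 of 18. Normalized counts at HGF were 62.5, 27.5 and 31.6 in empty vector libraries 1 to 3 and 19.6, 13.3 and 15.8 in HMGB2OE libraries 1 to 3 (log2 fold change -1.28, ± 0.379 standard error, adjusted p = 0.0382). Empty vector library 1 was far above the other two, and without it the log2 fold change was -0.85 (adjusted p = 0.251). The HGF call was lost as well without each of the 3 HMGB2OE libraries (adjusted p = 0.0742, 0.131 and 0.0934) and with GC-content offsets (adjusted p = 0.0597). SPG11 encodes spatacsin, a protein of lysosome renewal, and ZNF582 a C2H2 zinc finger protein. Normalized counts went from 58.5 ± 8.08 to 27.8 ± 10.4 at SPG11 (log2 fold change -1.08) and from 61.0 ± 12.8 to 28.5 ± 5.52 at ZNF582 (log2 fold change -1.06; SD, n = 3 each). SPG11 lost its call in 3 fits without 1 library, with a log2 fold change of -0.80 without HMGB2OE library 2 (adjusted p = 0.133), and ZNF582 in 4, at adjusted p-values up to 0.0746. In the SPG11 peak 15.7% of the words were repeated elsewhere in the genome.

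The last 5 of the 10 largest called falls had log2 fold changes from -0.97 to -0.90. They were in GRK5, a kinase of G protein-coupled receptors (-0.97), HSD17B2, an enzyme that inactivates sex steroids (-0.94), PZP, a protease inhibitor (-0.93), WASF2, an activator of actin branching (-0.90), and the transcription factor gene TFCP2 (-0.90). Mean normalized counts in empty vector libraries were between 57.7 at WASF2 and 91.1 at HSD17B2. HSD17B2 lost its call without HMGB2OE library 2 (adjusted p = 0.0729) and TFCP2 without empty vector library 2 (0.0907). PZP lost it in 2 fits without 1 library (adjusted p = 0.0515 without empty vector library 3 and 0.0632 without HMGB2OE library 1), GRK5 in 4 (highest adjusted p = 0.106, without HMGB2OE library 1) and WASF2 in all 6 (highest adjusted p = 0.132, without HMGB2OE library 2). At WASF2, 21.6% of the words were repeated elsewhere, and at PZP 16.1%.

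**Figure D3:**
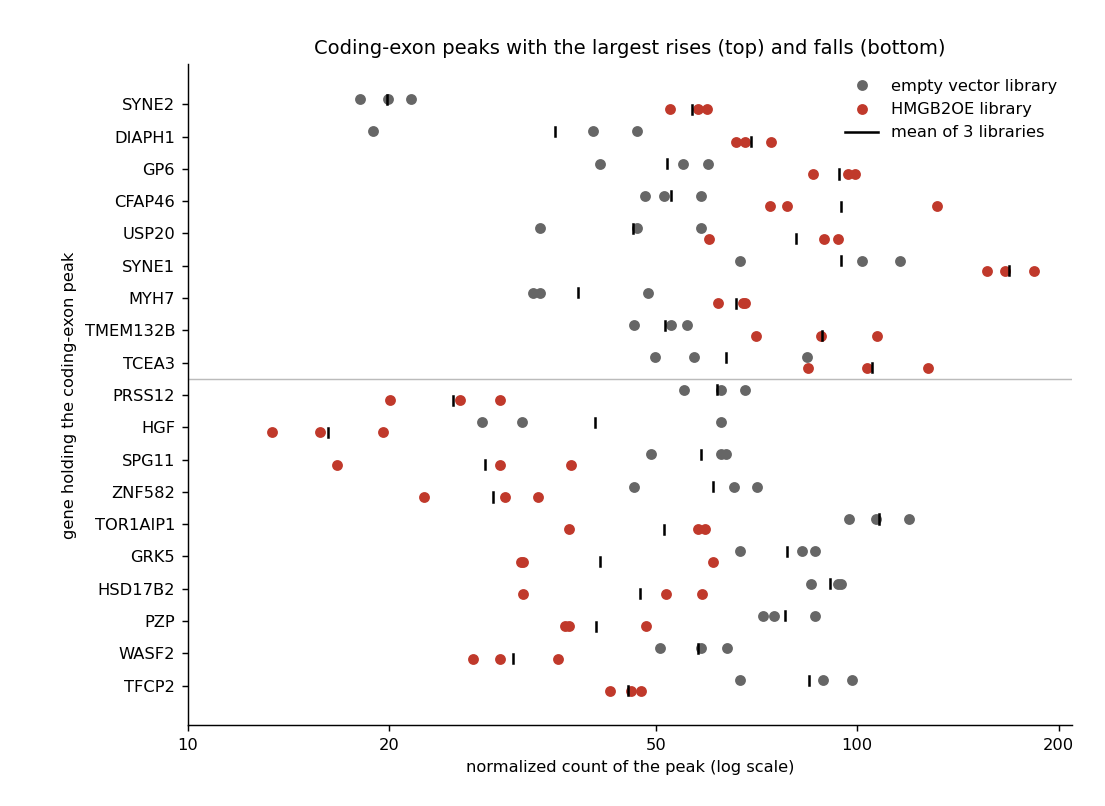
Normalized count of each library (log axis) at the coding-exon peaks with the largest called rises (above the line) and the largest called falls (below it), with empty vector libraries in grey, HMGB2OE libraries in red and the mean of each 3 as a black tick. In every gene shown the conditions do not overlap, widely so for SYNE2 and PRSS12 and narrowly for TCEA3 and USP20.

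The 19 other called peaks had log2 fold changes between -0.79 and 0.72. Those that rose were in ARHGAP23 and APC2 (0.72 and 0.71), TXN2, ADCY10, TMEM53, PLPPR4, CYP26C1 and CD40LG, the last 6 between 0.64 and 0.70. Those that fell were in ANKFN1, C2orf16, EPB41L5, ST8SIA1, LYSMD3, ST6GALNAC5, RUBCNL, MERTK, MIGA1, RBMS2 and CEBPZ. EPB41L5, whose product contains a FERM domain and takes part in cell adhesion, had the lowest adjusted p of all called coding-exon peaks. It went from 333.5, 388.0 and 408.4 normalized counts in empty vector libraries 1 to 3 to 240.6, 199.3 and 239.8 in HMGB2OE libraries 1 to 3 (log2 fold change -0.74, ± 0.118 standard error, edgeR's quasi-likelihood test, adjusted p = 0.000230). All HMGB2OE libraries were lower by a wide gap. Of the 39 calls, 8 held in every fit without 1 library, among them the rises at SYNE2, SYNE1 and ADCY10, the soluble adenylyl cyclase gene, and the falls at PRSS12, TOR1AIP1, EPB41L5 and LYSMD3. These 8 also held in every other alternative fit. The DESeq2 Wald test did not call 10 of the 39 and gave no adjusted p for HGF, and no called peak changed sign in any alternative that gave a value.

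For each called coding-exon peak, the strongest peak within 3000 bp of a start site of a protein-coding transcript of the same gene was taken as its promoter. Such a peak was tested for 30 of the 39, and 0 of these were called in the same direction. Over all tested promoter peaks, 1.07% were called higher and 0.838% lower. With shares this low, a count of 0 among 30 says little about these genes. Log2 fold changes of the 30 promoters lay between -0.58, at HGF, and 0.33, at PLPPR4, and 17 had the sign of the coding-exon peak. The medians of all other tested peaks within 500 kb were between -0.12 and 0.12 around the called peaks. Each is a median over many peaks, and the median over all tested peaks was -0.0049. Such medians cannot show whether a change was local. Medians over the other peaks of the same gene were further from 0 in some genes. At ST8SIA1, whose peak fell, the 12 others had a median of -0.42, with 3 called lower. At GP6, whose peak rose, the 3 others had a median of 0.57. At HSD17B2 the direction was opposite, with a median of 0.40 over the 2 others beside a fall. Over all coding-exon peaks, the log2 fold change had a Pearson correlation of 0.15 with the median of the other peaks within 500 kb (n = 1532 peaks) and of 0.25 with the median of the other peaks of the gene, where there were at least 3 (n = 1115 peaks). These correlations are across peaks that share the same 6 libraries, and are given as descriptions.

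**Figure D4:**
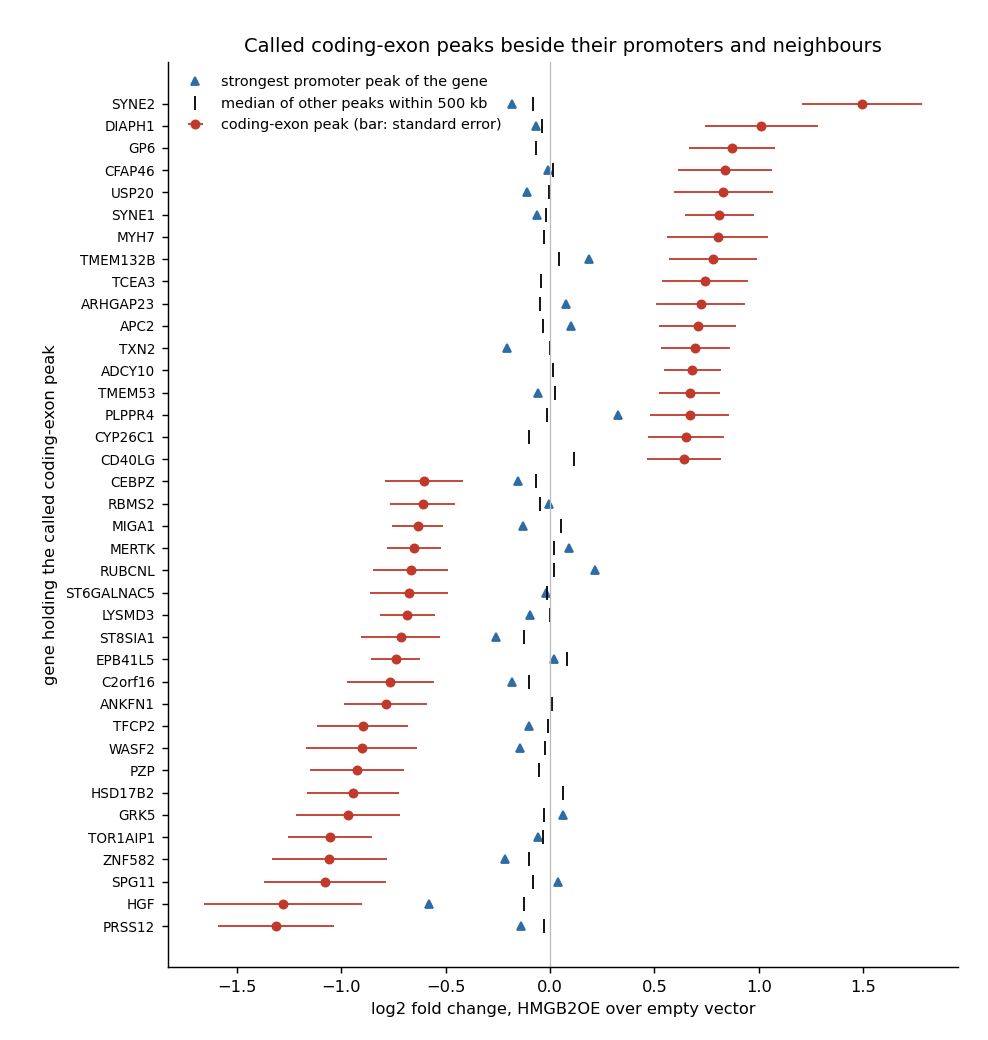
Log2 fold change (HMGB2OE over empty vector) of called coding-exon peaks (red circles, bars of 1 standard error), of the strongest promoter peak of the same gene (blue triangles, where there is one) and the median of all other tested peaks within 500 kb (black ticks). Promoter values lie between -0.58, at HGF, and 0.33, at PLPPR4. The neighbour values, each a median over many peaks, lie between -0.12 and 0.12.

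Rises and falls differed in base composition. The median GC content was 55.6% in the 18 peaks that rose and 41.6% in the 21 that fell. Of 288 tested coding-exon peaks under 40% GC, 1 was called higher and 9 lower. The one that rose was SYNE2, at 37.3% GC. From 40% to 50% GC, 5 of 587 were higher and 11 lower, from 50% to 60% GC 6 of 356 were higher and 1 lower, and at 60% or more 6 of 301 were higher and none was lower. The fall above 50% was GRK5, at 59.4% GC. Among the other peaks away from promoters, 271 of 26850 were higher and 854 lower under 40% GC, 1287 of 50266 higher and 735 lower from 40% to 50%, 643 of 20439 higher and 145 lower from 50% to 60%, and 87 of 4730 higher and 23 lower at 60% or more. From 40% to 50% GC, falls were thus the larger number in coding-exon peaks and rises in the others, a difference that was not tested. Over coding-exon peaks the log2 fold change had a Pearson correlation of 0.13 with GC content (n = 1532 peaks), and over the other peaks away from promoters one of 0.16 (n = 102285 peaks), both as descriptions. With GC-content offsets, which take a trend on GC out of each library, 17 coding-exon peaks were higher and 21 lower, and 4 of the 39 calls were lost. Whether GC content had a part in single calls was not tested.

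**Figure D5:**
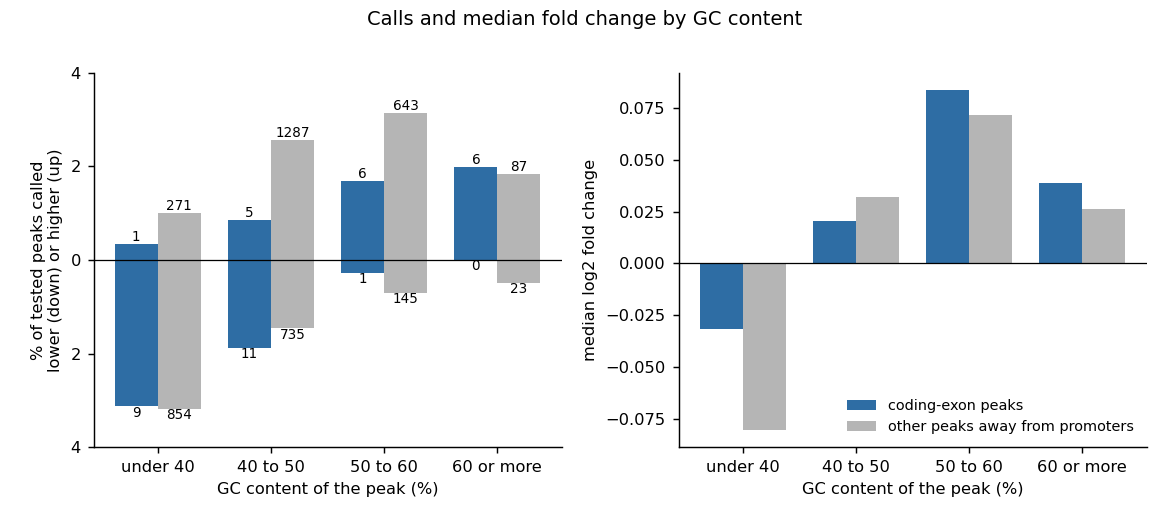
Left, the percentage of tested peaks called higher (up) or lower (down) in HMGB2OE cells by GC content, for coding-exon peaks (blue) and other peaks away from promoters (grey), with the number of called peaks at each bar; right, the median log2 fold change of each class. In both sets falls prevail under 40% GC and rises from 50% GC upwards, and the medians are below 0 under 40% GC alone.

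Calls were spread over the places a peak can have in its gene, and their shares were not compared by a test. Internal exons had 9 rises (0.781%) and 13 falls (1.13%) among 1153 tested peaks, and last coding exons 8 (2.81%) and 6 (2.11%) among 285, beside 1.87% and 1.44% of all tested peaks. Last-exon peaks had a median GC content of 50.8%, against 46.8% for internal ones, and a median normalized count of 123 against 95.4. Of the 86 peaks that were coding throughout, 3 were higher and 1 lower, and their HMGB2OE libraries were all above at 19 and all below at 5, beside 12.6% and 12.5% of all tested peaks. At the limits of the rule, 2 of the 155 tested peaks with the fewest coding bases (100 or slightly more) were higher and 1 lower (median log2 fold change 0.039), and among the 138 excluded peaks with 90 to 99 coding bases 1 was higher and none lower (median 0.027). Within 300 bp beyond the limit on start site distance, none of 77 was higher and 1 was lower, and within 300 bp inside it, 1 of 96 excluded peaks was higher and 3 were lower. The 48 tested peaks with mostly repeated words included no call.

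By gene family, the cytoskeletal and linker proteins were the list with called rises. Of their 59 tested coding-exon peaks, 3 were called higher (SYNE2, SYNE1 and MYH7) and none lower. The HMGB2OE libraries were all above at 14 of the 59 and all below at 2, beside 12.6% and 12.5% of all tested peaks, and the median log2 fold change was 0.099. Over all tested peaks 1.87% were called higher. DIAPH1 and the falling WASF2 are not in that list. C2H2 zinc finger genes had 32 tested peaks, with ZNF582 as their single call and a median of 0.018. No peak was called among the 53 of extracellular matrix genes (median 0.054), 43 of ion channels (0.054), 52 of transporters (0.018), 21 of receptor tyrosine kinases, Notch and the MAPK pathway (0.097), 20 of chromatin regulators (-0.073), 16 of axon guidance genes (-0.18), 11 of homeobox, SOX and forkhead factors (-0.083) and 9 of cadherins (0.11). Families with near-identical copies held 50 coding-exon peaks, of which 34 were tested and none was called.

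Several peaks in these lists passed the adjusted p but not the fold limit of 1.5. At KDM3B, a histone demethylase gene, normalized counts were 386.4, 392.3 and 378.0 in empty vector libraries 1 to 3 and 576.3, 457.1 and 493.1 in HMGB2OE libraries 1 to 3 (log2 fold change 0.40, adjusted p = 0.0176). The conditions did not overlap. MAP3K3, a kinase of the MAPK cascade, went from 98.5 ± 3.40 to 144 ± 15.7 (mean and SD of 3 libraries; log2 fold change 0.55, adjusted p = 0.0290), and the potassium channel gene KCNH7 from 90.1 ± 7.02 to 131 ± 16.9 in 1 of its peaks (mean and SD of 3 libraries; log2 fold change 0.53, adjusted p = 0.0479). At a second KCNH7 peak the log2 fold change was 0.70, with an adjusted p of 0.114. Lower were TFAP2C, a transcription factor of the AP-2 family (log2 fold change -0.29, adjusted p = 0.0408), and the transporters SLC44A1 (-0.43, adjusted p = 0.0208) and SLC25A47 (-0.53, adjusted p = 0.0411), all by edgeR's quasi-likelihood test. Each of these 6 passes was lost in some fits without 1 library, for SLC25A47 in all 6. The highest adjusted p was 0.176 for KDM3B, 0.159 for MAP3K3 and 0.205 for KCNH7 (each without HMGB2OE library 1), 0.175 for TFAP2C and 0.103 for SLC25A47 (without HMGB2OE library 3) and 0.218 for SLC44A1 (without empty vector library 2). With GC-content offsets, KDM3B (0.0675), MAP3K3 (0.0652), TFAP2C (0.0713) and SLC44A1 (0.0687) did not pass either. By the DESeq2 Wald test, MAP3K3 (0.0637), the first KCNH7 peak (0.103) and SLC25A47 (0.0965) did not pass, whereas KDM3B, TFAP2C and SLC44A1 did. SLC25A47 also did not pass in edgeR's test with scaling by library size alone (0.0536).

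The most accessible coding-exon peaks were not called. RP1, a gene of the photoreceptor axoneme, had the highest mean, with 2295 ± 227 normalized counts in empty vector and 2006 ± 98.1 in HMGB2OE libraries (mean and SD of 3 libraries; log2 fold change -0.19, edgeR's quasi-likelihood test, adjusted p = 0.134). At MYT1, a zinc finger factor of neural differentiation, counts were 1579, 1973 and 1856 in empty vector libraries 1 to 3 and 2186, 2124 and 1975 in HMGB2OE libraries 1 to 3 (log2 fold change 0.21, adjusted p = 0.108). The MYT1 libraries did not overlap, though empty vector library 2 almost met HMGB2OE library 3. The next highest were UBR1 (log2 fold change -0.10), PRDM9 (-0.016), CYFIP2 (-0.15) and AMOTL1 (0.0047), with adjusted p-values from 0.371 to 0.982. For UBR1, PRDM9 and AMOTL1 the sign of these small values depended on the scaling or the libraries used. In the PRDM9 peak, in the last coding exon, which encodes its zinc finger array, 71.0% of the words were repeated elsewhere in the genome.

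The genes with the most coding-exon peaks had no called one. MCMBP, whose product binds the replicative helicase, held 6, with log2 fold changes from -0.46 to 0.46 and a lowest adjusted p of 0.0669. CRYBG1 held 5, from -0.30 to 0.24, of which the one with the lowest adjusted p (0.0499) fell by less than the fold limit. FBN2 (fibrillin 2), HMCN2 (hemicentin 2) and NOS2 (inducible nitric oxide synthase) each held 4, with no call. SPATA31C2 and DMBT1 also held 4 each, but 74.2% to 84.1% of the words in the SPATA31C2 peaks and 100% of those in the DMBT1 peaks were repeated, and no DMBT1 peak had enough counts to be tested.

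Short sequence words were counted on both strands of each whole peak, as a description of what these exons contain. The AP-1 word TGACTCA was found in 26.5% of tested coding-exon peaks and 32.1% of other peaks away from promoters. The word AGGGGGC, part of the CTCF site, was in 15.01% and 8.35%, and the E-box CACGTG, which reads the same on both strands, in 7.38% and 5.82%. The SOX word ACAAAGG was in 10.7% and 13.2%, the TEAD word GGAATGT in 9.14% and 9.81%, and the ETS word CCGGAAGT in 0.783% and 0.426%. Among called peaks, TGACTCA was in 5 of the 18 that rose (ADCY10, DIAPH1, MYH7, TCEA3 and USP20) and in 9 of the 21 that fell, TOR1AIP1, SPG11 and EPB41L5 among them. GGAATGT was in none of the 18 that rose and in 8 of the 21 that fell (GRK5, HGF, LYSMD3, MERTK, PZP, RBMS2, TOR1AIP1 and ZNF582). ACAAAGG was in 1 that rose and 2 that fell, CACGTG in 1 and 1, AGGGGGC in 0 and 1, and CCGGAAGT in none. Peaks that fell also had a lower median GC content (41.6%) than those that rose (55.6%). Whether base composition bears on these word counts was not tested. The median log2 fold change was -0.0089 over the 140 coding-exon peaks with GGAATGT and 0.039 over those without it. In C2H2 zinc finger genes, 6 of 32 tested peaks (18.8%) held GGAATGT, and in the ZNF582 sequence above it lies within the coding bases.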

How the data were processed

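ATAC-seq was done on frozen A375 cells, with 3 libraries per condition. Per the labels and methods, the authors trimmed reads with Trim Galore 0.6.7 and cutadapt 4.0, mapped them to hg38 (Bowtie 2), dropped duplicates (Picard), ran MACS2 with melanocyte data as the control, joined the peaks into 1 atlas and deposited raw featureCounts counts for every peak in every library. A shift for Tn5 and the treatment of reads with several alignments are not given in the sources used here.

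The deposited counts were tested over all peaks that passed filterByExpr, with edgeR 4.0.16 in R 4.3.3 (TMM, quasi-likelihood F test, no covariate, Benjamini-Hochberg adjustment over 150117 peaks). This follows the 2-group design of the study, whose DESeq2 Wald test (DESeq2 1.42.0) was an alternative. Standard errors are |log2 fold change| over the root of the F statistic. GENCODE release 44 gave coding sequence, start sites (all transcripts of protein-coding and lncRNA genes) and canonical exons. In simulated counts, 94.5% of 200 peaks given a log2 change of 1.5 were recovered, with 9 false calls among 149862 tested. The called coding-exon peaks changed by less than this, most of them by much less. The share recovered therefore does not hold for changes of their size.

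Peaks named are the 10 largest called rises and falls whose libraries do not overlap, the 6 with the highest mean count, genes with the most coding-exon peaks (5, or 7 with ties) and the 2 lowest p-values of each gene list. Any other peak was named with its values in view. A peak and some sequences that this rule takes in are not reported here. The members and lists were chosen with earlier results of these data known. The alternatives were other scalings, GC-content offsets, DESeq2, other filters and fold limits, stricter coding and distance limits, the replicate number as a block, and leaving out each library. Same-numbered libraries had correlations of their deviations of -0.089, 0.18 and 0.13, so the numbers were not treated as pairs.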

Additional observations from a re-analysis of the deposited data

How the results depend on the processing

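Beside 18 peaks called higher and 21 lower, fits without 1 library called 8 to 24 higher and 13 to 20 lower, with a median log2 fold change of 0.0098 to 0.046 over coding-exon peaks. A lower fold limit gave 38 higher and 33 lower, and none at all 38 and 37. Among the 296 tested peaks of which at least 50% was coding, 7 were higher and 4 lower. Among the 677 more than 10000 bp from a start site, 8 were higher and 14 lower. With start sites only of transcripts that are themselves typed as protein-coding or lncRNA, a reading added after seeing the data, the rule took 2488 peaks. Of these, 28 were called higher and 31 lower. In each of these cases the set of peaks, the libraries or the limit itself differed. The libraries share replicate numbers, and the sources used here do not say whether these pair them. With a replicate block, 20 peaks were higher and 22 lower, and none of the 39 calls was lost. The other scalings, filters and DESeq2 gave counts within 1.5 times of the main 18 and 21. The DESeq2 Wald test, with 12 higher and 17 lower, was at the edge of this range. Among the named peaks, signs turned at 3 that were never called. Sign changes at the remaining coding-exon peaks are not given here. UBR1 had log2 fold changes of 0.042 with GC-content offsets and 0.051 with these and the replicate block. PRDM9 had 0.0053 by library size alone and -0.12 to 0.088 over the fits without 1 library, above 0 without empty vector replicate 2, empty vector replicate 3 or HMGB2OE replicate 2. AMOTL1 had -0.051 with GC-content offsets, -0.050 with these and the replicate block, and -0.039 to 0.039 over the fits without 1 library, below 0 without empty vector replicate 1 or HMGB2OE replicate 1. The cause was not tested. At normalized counts of 20 to 100, as at most called peaks, counting error alone is large, and a missed call does not show that a peak did not change.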
